A study of Sus scrofa with 6 samples.

Results

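Macrophages arise from myeloid precursors under the control of growth factors, the receptors that bind them and a small set of transcription factors. CSF1 and IL34 are ligands of the receptor tyrosine kinase CSF1R, and in vessel walls they are made mainly by endothelial cells, smooth muscle cells and fibroblasts, while CSF1R is carried by monocytes and macrophages. CSF2RB is the shared signalling chain of the receptors for GM-CSF, IL-3 and IL-5, and CSF2RA is the chain that makes the GM-CSF receptor specific for its ligand. SPI1 (PU.1), CEBPA, CEBPB and IRF8 are transcription factors that set and maintain the myeloid programme. The 9 genes were chosen by gene name, and 8 of them were matched among the 30477 genes of the expression table and passed the filter on low values. CSF2RA was not analysed here.

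The genes were measured in abdominal aorta from male Wuzhishan miniature pigs, 3 on normal chow (NC group) and 3 on a diet rich in fat, cholesterol and fructose (HFCF group). Both groups were fed for 6 months, and the pigs were 3 to 4 months old per the sample labels, while the methods of the study give an older age at purchase. The labels name no genetic change in either group, and each library of the whole vessel wall was taken as 1 pig, so the comparison asks which of these genes differed between vessels with and without diet-induced atherosclerosis. The values are FPKM, the fragments of a gene scaled to the length of its exons and to the mapped reads of the library, so levels of different genes can be set side by side. The labels do not say outright that the libraries came from separate animals, so p-values measure only the spread between these samples, which may be technical. In bulk tissue, a higher number of cells of a type and more RNA per cell cannot be told apart.

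The depth behind single values is not known, but the steps between low FPKM values gave relative depths of 1 to 1.37 over the 6 libraries. Mitochondrial mRNAs took 4.55% to 6.78% of the summed FPKM in the NC pigs and 8.79% to 13.2% in the HFCF pigs. Among 15384 genes averaging 0.1 FPKM or more, limma called 3505 higher and 948 lower in the HFCF group at an adjusted p under 0.05. That is 22.8% higher and 6.16% lower, with 2033 higher and 1968 lower after median-ratio scaling, 1748 and 1782 after quantile normalization, and 2229 and 1527 after rescaling to TPM. The middle of all tested genes lay at a log2 fold change of 0.32, and several changes below are also given relative to it. Pearson correlations taken over genes (no independent replicates) were lower between the first HFCF pig and the other HFCF pigs (0.931 and 0.927) than between the other two (0.955).

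Of the 8 genes, 5 rose in the HFCF group and 0 fell, against 22.8% and 6.16% of all tested genes. The genes that rose were both receptors (CSF1R and CSF2RB) and the transcription factors SPI1, CEBPA and CEBPB. CSF1, IL34 and IRF8 did not pass an adjusted p of 0.05. With the thresholds used in the study (group means differing more than 2-fold or below 0.5-fold, unadjusted p under 0.05, here from limma), these 5 genes were higher and 0 lower, against 20.7% and 4.82% of all tested genes. Every HFCF value lay above every NC value in 6 of the 8 genes, against 36.1% of all tested genes, and the opposite held in 0 of the 8, against 12.1%. The median log2 fold change of the 8 genes was 2.11.

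**Figure D1:**
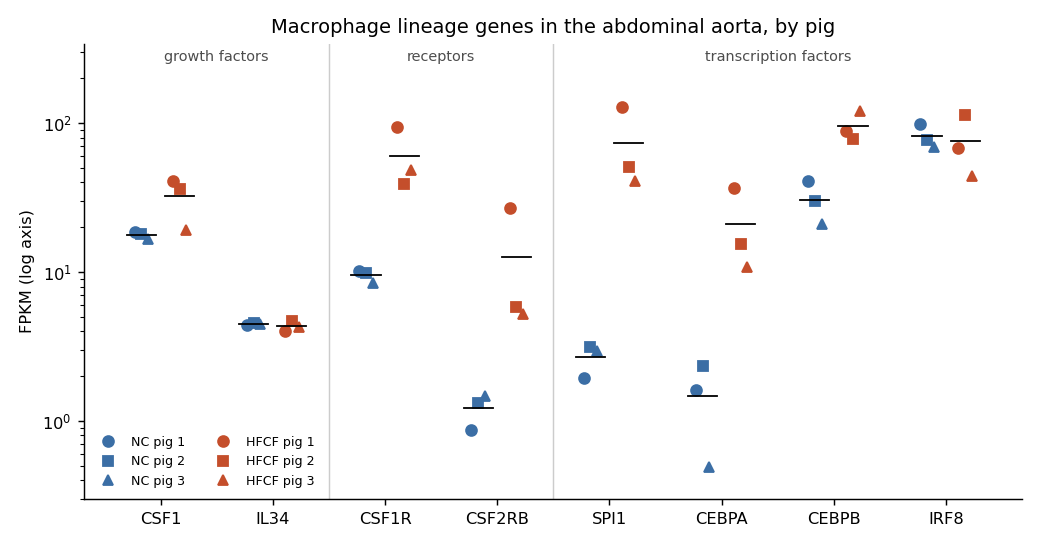
FPKM (log axis) of 8 macrophage lineage genes in each pig, NC in blue and HFCF in red, with symbols for the pigs and black bars for the group means. SPI1, CEBPA, CSF1R and CSF2RB are separated widely between the groups, IL34 lies between 4.03 and 4.72 FPKM in all 6 pigs, and IRF8 overlaps.

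Among the growth factors, CSF1 (ENSSSCG00000037449), the main survival and growth factor of macrophages, was 18.6, 17.9 and 16.7 FPKM in the NC pigs and 41.2, 36.2 and 19.3 FPKM in the HFCF pigs. The first and second HFCF pigs stood well above the NC pigs, and the third was only just above the highest of them. The group means were 17.7 ± 0.94 and 32.2 ± 11.5 FPKM (SD, n = 3 each). This gave a log2 fold change of 0.79 (standard error 0.28), 0.46 above the middle of all genes, and CSF1 was not called (adjusted p = 0.0748, limma). Without the third HFCF pig it was 1.12 with an adjusted p of 0.00884 (limma), and in the other 14 alternatives CSF1 stayed uncalled. Its log2 fold change was 0.43 to 0.64 under the 3 other scalings.

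IL34 (ENSSSCG00000040629), the alternative ligand of CSF1R, was 4.43, 4.52 and 4.45 FPKM in the NC pigs and 4.03, 4.72 and 4.31 FPKM in the HFCF pigs. The HFCF values lay on both sides of the NC values. Its log2 fold change was -0.04 with a 95% confidence interval from -0.42 to 0.34 (adjusted p = 0.873, limma), or -0.36 relative to the middle of all genes. It was -0.47 to -0.30 under the 3 other scalings and was not called in any of 15 alternatives. IL34 varied less among the pigs than any other of the 8 genes, the highest NC value being 1.02 times the lowest and the highest HFCF value 1.17 times the lowest.

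Among the receptors, CSF1R (ENSSSCG00000014441) was 10.2, 9.81 and 8.46 FPKM in the NC pigs and 93.9, 39.0 and 48.4 FPKM in the HFCF pigs. All HFCF pigs were far above the NC pigs, and the first HFCF pig was the highest. It rose from 9.49 ± 0.92 to 60.4 ± 29.3 FPKM (SD, n = 3 each). In limma the log2 fold change was 2.56 with a standard error of 0.32 (adjusted p = 0.00257), 2.24 above the middle of all genes. CSF1R kept its call in all 15 alternatives, with log2 fold changes from 2.19 to 2.82.

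CSF2RB (ENSSSCG00000000136) was 0.871, 1.32 and 1.48 FPKM in the NC pigs and 26.8, 5.83 and 5.23 FPKM in the HFCF pigs. The groups did not overlap, and the first HFCF pig was 4.85 times the mean of the other HFCF pigs, the widest such gap among the 8 genes. CSF2RB rose by 2.87 on the log2 scale (limma, standard error 0.61, adjusted p = 0.0148). Without the first HFCF pig it was 2.12 with an adjusted p of 0.00677 (limma). Without the first NC pig the adjusted p was 0.0628 and without a filter on low values 0.0951 (limma), so CSF2RB lost its call in 2 of 15 alternatives.

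A row without a gene symbol, ENSSSCG00000032135, is described in the table as an alpha-like subunit of the GM-CSF receptor. It was looked at after its values had been seen, and the NCBI gene number in its description is another entry of RefSeq than CSF2RA. It was 0.325, 0.783 and 1.26 FPKM in the NC pigs and 17.5, 5.88 and 6.17 FPKM in the HFCF pigs. As with CSF2RB, the groups did not overlap and the first HFCF pig was the highest. The row rose by 3.45 on the log2 scale (limma, standard error 0.56, adjusted p = 0.00612), and its adjusted p was 0.0502 without a filter on low values. How reads shared with a related alpha chain gene were divided is not shown by FPKM.

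SPI1 (ENSSSCG00000013237), the ETS factor without which macrophages do not form, was 1.95, 3.13 and 2.95 FPKM in the NC pigs and 128.4, 50.5 and 40.8 FPKM in the HFCF pigs. The lowest HFCF pig was far above the highest NC pig. From an NC mean of 2.68 ± 0.63 FPKM to an HFCF mean of 73.2 ± 48.0 FPKM (SD, n = 3 each), SPI1 rose 27.4-fold. In limma the log2 fold change was 4.56 with a standard error of 0.43 (adjusted p = 0.00117), the largest of the 8 genes and the 61st highest of all tested genes. It was 4.06 without the first HFCF pig, and SPI1 was called in all 15 alternatives.

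CEBPA (ENSSSCG00000002866), a C/EBP factor needed for early myeloid cells and also for fat cells, was 1.63, 2.34 and 0.489 FPKM in the NC pigs and 36.7, 15.6 and 10.8 FPKM in the HFCF pigs. The groups did not overlap, and the NC pigs differed 4.78-fold among themselves. CEBPA rose by 3.77 on the log2 scale (limma, standard error 0.62, adjusted p = 0.00647), with an adjusted p of 0.055 without a filter on low values and under 0.05 in the other 14 alternatives. The fat cell marker ADIPOQ was 39.1, 59.9 and 1.22 FPKM in the NC pigs and 4.08, 0.30 and 4.04 FPKM in the HFCF pigs. Among the NC pigs CEBPA and ADIPOQ had the same order, but among the HFCF pigs they did not. The summed markers of macrophages, neutrophils, mast cells, endothelium and fibroblasts, given below, also had this NC order. Those of dendritic cells, B cells, T cells and contractile smooth muscle did not. The 7 fat cell markers did not move one way, and 0 of them were called in either direction. LPL, which macrophages also make, was 8.96, 13.3 and 0.73 FPKM in the NC pigs and 33.9, 17.2 and 14.4 FPKM in the HFCF pigs, and PPARG had a log2 fold change of 1.37. The part of fat cells in the result for CEBPA was not tested.

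CEBPB (ENSSSCG00000034207), a C/EBP factor induced in inflammation and expressed in many cell types, was 40.9, 30.2 and 21.0 FPKM in the NC pigs and 88.2, 78.7 and 120.8 FPKM in the HFCF pigs. The groups did not overlap, and here the third HFCF pig was the highest. CEBPB rose from 30.7 ± 9.97 to 95.9 ± 22.1 FPKM (SD, n = 3 each). On the log2 scale this was a rise by 1.67 in limma, with a standard error of 0.28 and an adjusted p of 0.00641. It was called in all 15 alternatives, and the smallest log2 fold change among them was 1.31.

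IRF8 (ENSSSCG00000034980), an interferon regulatory factor that acts with SPI1 in monocytes, dendritic cells and B cells, was 98.2, 77.5 and 69.4 FPKM in the NC pigs and 68.5, 114.0 and 44.3 FPKM in the HFCF pigs. The groups overlapped, with the highest and the lowest value both in the HFCF group. Its log2 fold change was -0.20, its 95% confidence interval running from -0.995 to 0.59 (adjusted p = 0.68, limma), and IRF8 was not called in any of 15 alternatives. Without the third HFCF pig the log2 fold change was 0.13.

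**Figure D2:**
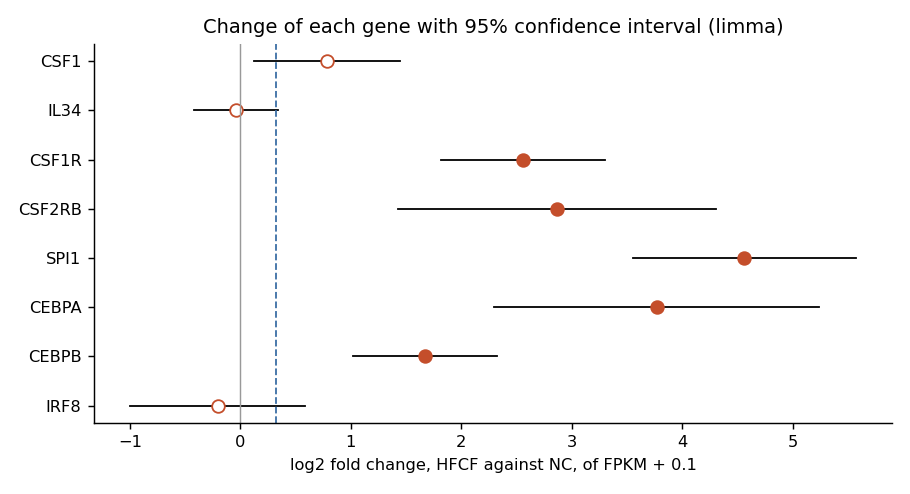
Log2 fold change of each gene (points) with its 95% confidence interval (lines) from limma, filled where the adjusted p is under 0.05. The dashed blue line is the median of all tested genes at 0.32, which the intervals of CSF1, IL34 and IRF8 include.

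The order of the levels within a group also differed. In the NC pigs IRF8 had the highest mean FPKM, above 98.5% of all genes in the table, followed by CEBPB, CSF1, CSF1R, IL34, SPI1, CEBPA and CSF2RB. The ranges of neighbouring genes did not overlap from IRF8 down to IL34 and SPI1, whereas SPI1 and CEBPA overlapped, as did CEBPA and CSF2RB. In the HFCF pigs the order of the means was CEBPB, IRF8, SPI1, CSF1R, CSF1, CEBPA, CSF2RB and IL34. There the ranges of all neighbours overlapped except those of CSF2RB and IL34, so the upper part of that order is not separated beyond the spread among pigs. SPI1 stood above 74.9% of all genes in the NC group and above 98.2% in the HFCF group, while IL34 stood above 80.1% and 76.5%.

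The first HFCF pig had the highest HFCF value in 5 of the 8 genes (CSF1, CSF1R, CSF2RB, SPI1 and CEBPA), while CEBPB was highest in the third and IL34 and IRF8 in the second. The summed FPKM of 13 macrophage markers was 1205 in the first HFCF pig, 448.9 in the second and 469.2 in the third, against 77.3 to 80.4 in the NC pigs. The part of this difference in the result for each gene was not tested. Without the first HFCF pig, 5 of the 8 genes were called higher and 0 lower. Over all genes, the same fit called 2810 higher and 786 lower.

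A ratio of FPKM within a library is unchanged when all its values are scaled by a single factor. The 0.1 FPKM added to each value breaks this for low genes, among them some macrophage markers. The groups were compared for 10 ratios with an exact two-sided permutation test. With 3 pigs against 3 this exact test cannot go below p = 0.1, so none of the ratios could reach 0.05, and the smallest value adjusted over the 10 ratios is 0.125. The ratio of CSF2RA to CSF2RB was not computed.

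The log2 ratio of CSF1R to CSF1, receptor to ligand, was -0.86, -0.86 and -0.98 in the NC pigs, against 1.19, 0.11 and 1.32 in the HFCF pigs. The ligand had the higher FPKM in every NC pig and the receptor in every HFCF pig, a difference of 1.77 (exact permutation p = 0.1). The log2 ratio of CSF1R to IL34 was 1.07 ± 0.14 in the NC group and 3.66 ± 0.76 in the HFCF group (SD, n = 3 each). IL34 relative to CSF1 had a log2 ratio of -1.97 ± 0.08 in the NC group and -2.79 ± 0.60 in the HFCF group (SD, n = 3 each), so the mRNA of CSF1 had the higher FPKM in all 6 pigs. For both of these ratios the groups did not overlap (exact permutation p = 0.1 each).

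Among the transcription factors, the log2 ratio of IRF8 to SPI1 was 5.58, 4.59 and 4.51 in the NC pigs, against -0.91, 1.17 and 0.12 in the HFCF pigs. IRF8 exceeded SPI1 by a wide margin in every NC pig, whereas in the HFCF pigs it was below SPI1 in the first, above it in the second and near it in the third, a difference of -4.76 (exact permutation p = 0.1). The log2 ratio of CEBPA to CEBPB was -4.46 ± 0.77 in the NC group and -2.35 ± 1.10 in the HFCF group (SD, n = 3 each). CEBPB had the higher FPKM in all 6 pigs. SPI1 relative to CSF1R had a log2 ratio of -1.81 ± 0.45 in the NC group and 0.19 ± 0.38 in the HFCF group (SD, n = 3 each), again without overlap.

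Set against the mean log2 level of 13 macrophage markers, the 4 genes examined differed from each other. The log2 ratio of CSF1R to the markers was 2.44, 2.28 and 1.96 in the NC pigs, against 1.901, 1.83 and 2.06 in the HFCF pigs. The groups overlapped, with a difference of -0.29 (exact permutation p = 0.2) that was 0.15 with a pseudocount of 1. CSF2RB relative to the markers also overlapped between the groups, with a difference of 0.02 (exact permutation p = 1) whose sign changed in 4 of 8 alternatives.

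SPI1 relative to the markers had a log2 ratio of 0.41 ± 0.28 in the NC group and 2.13 ± 0.28 in the HFCF group (SD, n = 3 each), a difference of 1.71 without overlap (exact permutation p = 0.1). The single markers spread widely, with log2 fold changes from -0.24 (MERTK) to 5.22 (MSR1), and CD68 (4.99), AIF1 (5.13) and MSR1 had larger values than SPI1 (4.56). IRF8 relative to the markers went from 5.31 ± 0.36 to 2.25 ± 1.004 (SD, n = 3 each), a difference of -3.05 without overlap (exact permutation p = 0.1). IRF8 itself was not called (log2 fold change -0.20), while 10 of the 13 markers rose.

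**Figure D3:**
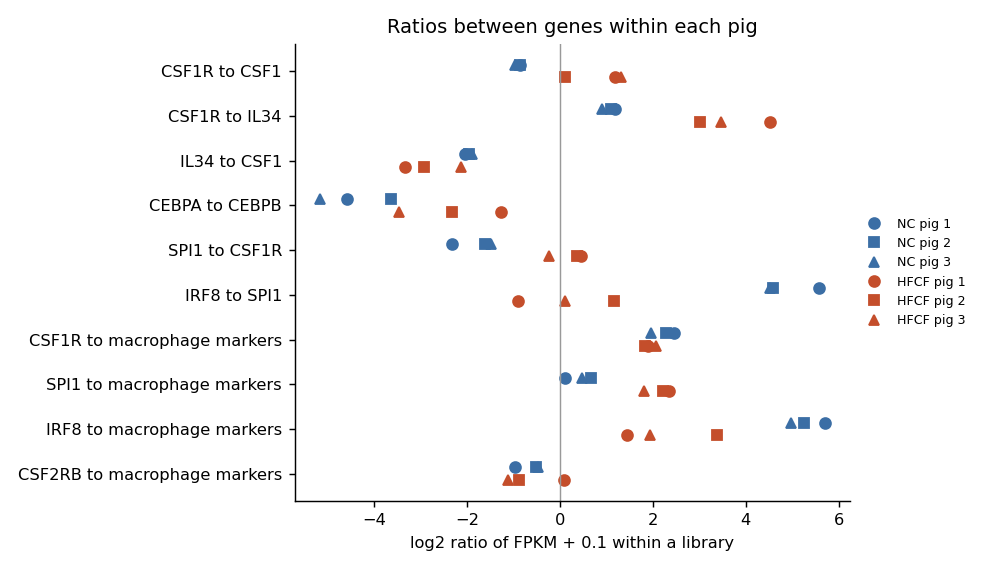
Log2 ratios of FPKM + 0.1 between genes within each library, NC in blue and HFCF in red, with a symbol for each pig. CSF1R to CSF1 crosses 0 between the groups, SPI1 to the macrophage markers is shifted by 1.71, and CSF1R and CSF2RB relative to the markers overlap.

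The marker lists show which cells the RNA could come from. Of the 13 macrophage markers tested, 10 rose and 0 fell, with a median log2 fold change of 2.97, and CD68 was 3.65 to 5.67 FPKM in the NC pigs and 98.0 to 261.0 FPKM in the HFCF pigs. CD163 was 1.26 to 1.70 and 6.47 to 27.3 FPKM, and CD14 3.14 to 3.59 and 7.14 to 21.1 FPKM. None of the 13 was at 0 in all pigs. The summed FPKM of 9 contractile smooth muscle markers was 15971 to 22793 in the NC pigs and 8037 to 12932 in the HFCF pigs, 6 of the 9 being lower at an adjusted p under 0.05 (limma). Their defining genes MYH11, ACTA2 and CNN1 were abundant in every pig, as the labelled tissue would have, with MYH11 between 823.8 and 2201 FPKM, ACTA2 between 3359 and 9145 FPKM and CNN1 between 574.3 and 2070 FPKM.

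SPI1, IRF8 and CSF2RB are also expressed in B cells, dendritic cells, neutrophils or mast cells, so the markers of these cells are given beside them. The summed FPKM of 6 neutrophil markers was 1.59 to 2.81 in the NC pigs, against 70.7, 13.7 and 3.99 in the HFCF pigs. CSF1, CSF2RB, SPI1 and CEBPA had the same order of the HFCF pigs. The B cell and endothelial marker sums had this order too, and those of the other lists did not. Of the 4 neutrophil markers tested, 1 rose, MMP9, which macrophages also make. It held 31.1, 8.38 and 2.17 FPKM of the neutrophil sums of the HFCF pigs. S100A8 was at 0 in the third HFCF pig and all NC pigs, S100A12 was 0.094 to 2.02 FPKM in the NC pigs and 0.85 to 27.3 FPKM in the HFCF pigs, and ELANE had a log2 fold change of 0.03.

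The sum of 4 mast cell markers overlapped between the groups, at 8.04 to 12.5 and 11.2 to 13.3 FPKM, but most of it was GATA2, which other cells also express and which had a log2 fold change of -0.28. HDC and HPGDS rose, by 1.83 and 2.89 on the log2 scale (adjusted p = 0.0203 and 0.0217, limma). MS4A2 was 0.71 to 1.60 FPKM in the NC pigs and 1.37 to 3.11 FPKM in the HFCF pigs and was not called. 0 of the 4 fell.

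The sum of 6 B cell markers was 6.38 to 11.0 FPKM in the NC pigs and 36.3 to 45.8 FPKM in the HFCF pigs, most of it CD79A, the 1 of 5 tested that rose. The sum of 5 dendritic cell markers was 4.45 to 6.35 and 7.01 to 17.6 FPKM, and FCER1A and CADM1 rose while XCR1 (under 0.33 FPKM throughout) and ZBTB46 (1.63 to 4.02 FPKM) were not called. The sum of 8 T cell markers was 2.02 to 2.60 and 2.96 to 21.2 FPKM. Of these, 2 rose, CD2 and CD8A, and CD3E and CD3D, at most 0.26 FPKM in the NC pigs, were 0.31 to 3.11 FPKM in the HFCF pigs and were not called. The part of these cells in the results was not tested.

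Which cells made CSF1 and IL34 in these vessels was not tested. Of the vessel cell types named at the start, smooth muscle is given above, its contractile marker sum being lower in the HFCF pigs. The endothelial sum of 8 markers was 111.6 to 232.9 in the NC pigs and 100.4 to 267.6 in the HFCF pigs. The fibroblast sum of 8 markers was 1419 to 2896 and 1762 to 3087. The groups overlapped in the endothelial and the fibroblast sum, and 0 of the 8 endothelial and 1 of the 8 fibroblast markers (LUM) rose, with 0 lower. Every HFCF value lay above every NC value in 2 of the 8 endothelial markers, TEK and KDR, which were not called. The same held for 1 of the 8 fibroblast markers (LUM) and for 36.1% of all tested genes. PECAM1 was 36.5 to 92.8 FPKM over the 6 pigs, CDH5 15.8 to 46.9 FPKM and VWF 15.2 to 50.9 FPKM. PDGFRA was 4.995 to 12.4 FPKM and DCN 263.9 to 753.0 FPKM, while LUM was 35.6 to 61.8 FPKM in the NC pigs and 154.0 to 200.2 FPKM in the HFCF pigs. Among the NC pigs, the 7 adipocyte markers summed to 192.4, 301.3 and 38.0 FPKM, the third NC pig being the lowest, and the HFCF pigs lay at 92.5 to 137.9. PLIN1 was 0.67 to 33.3 FPKM in the NC pigs and 0.25 to 4.46 FPKM in the HFCF pigs, and CIDEC 1.83 to 26.1 and 4.99 to 7.97 FPKM.

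**Figure D4:**
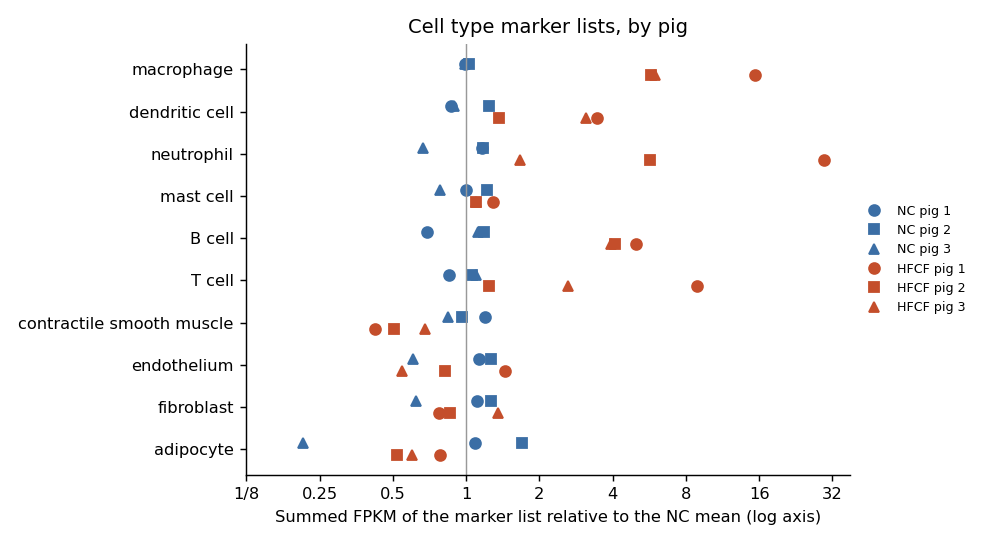
Summed FPKM of each cell type marker list in each pig, relative to the mean of the NC pigs (log axis), NC in blue and HFCF in red. The macrophage sums of the HFCF pigs are 448.9 to 1205 against 77.3 to 80.4 in the NC pigs, the contractile smooth muscle sums are lower in the HFCF pigs, and the endothelial, fibroblast and adipocyte sums overlap.

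The other ligands of these receptor families were mostly at the limit of the data. Of 6, 4 were matched by name and 2 passed the filter. CSF2 (GM-CSF), the ligand of the receptor that contains CSF2RB, was listed at 0 in all 6 pigs, and IL5 was at most 0.076 FPKM. CSF3 (G-CSF) was 0.14 to 0.59 FPKM in the NC pigs and 0.072 to 0.22 FPKM in the HFCF pigs and was not called. KITLG, the ligand of KIT, rose from 0.85, 1.06 and 1.10 FPKM in the NC pigs to 8.42, 5.03 and 4.53 FPKM in the HFCF pigs, or by 2.42 on the log2 scale (limma, adjusted p = 0.00217).

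Of 7 other receptors, 6 were matched, 4 were tested and 1 rose. This was CSF3R, the G-CSF receptor of neutrophils and monocytes, with 0.17, 0.19 and 0.38 FPKM in the NC pigs and 55.9, 8.38 and 4.55 FPKM in the HFCF pigs. The first HFCF pig carried most of the HFCF mean. The order of the HFCF pigs for CSF3R was that of CSF1, CSF2RB, SPI1 and CEBPA. It was also that of the neutrophil, B cell and endothelial sums. CSF3R rose by 5.29 on the log2 scale (limma, standard error 0.86, adjusted p = 0.0061), by 4.24 without the first HFCF pig, and the adjusted p was 0.0532 without a filter on low values. KIT and FLT3 were not called. SDC1, which can bind IL34, was not called either, and PTPRZ1, another IL34 receptor, was at most 0.14 FPKM.

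Among 21 genes of signal transduction below the receptors, all tested, 11 rose and 1 fell, with a median log2 fold change of 1.43 against 0.32 for all genes. The 3 with the smallest adjusted p were the adaptor TYROBP, the phosphatase PTPN6 (SHP-1) and the exchange factor VAV1. TYROBP was 11.1, 10.4 and 10.4 FPKM in the NC pigs and 247.6, 105.6 and 110.3 FPKM in the HFCF pigs, a rise by 3.73 on the log2 scale (limma, adjusted p = 0.000903). PTPN6 was 0.93 to 1.10 FPKM and 14.3 to 45.2 FPKM, with a log2 fold change of 4.35, and VAV1 was 0.55 to 0.69 FPKM and 6.91 to 18.3 FPKM, with a log2 fold change of 3.90. All 3 had their highest value in the first HFCF pig.

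The gene that fell was GAB2, a docking protein used by many cytokine receptors, with 19.5, 13.03 and 14.8 FPKM in the NC pigs and 7.31, 7.80 and 5.22 FPKM in the HFCF pigs. It fell by 1.21 on the log2 scale (limma, standard error 0.23, adjusted p = 0.0097) and was called in all 15 alternatives. STAT5A and STAT5B, which signal below CSF2RB, and their target CISH were not called, with log2 fold changes of -0.21, -0.92 and -1.02. JAK2, the kinase bound to CSF2RB, had a log2 fold change of 0.77 with an adjusted p of 0.0545 (limma).

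Of 18 other myeloid transcription factors, 16 were matched, 15 were tested, 8 rose and 0 fell, with a median log2 fold change of 1.40. BATF3, a factor of dendritic cells, was 0.15 to 0.25 FPKM in the NC pigs and 2.23, 2.56 and 2.40 FPKM in the HFCF pigs, a rise by 3.08 on the log2 scale (limma, adjusted p = 0.000937). Its HFCF values lay close together, unlike those of SPI1. MAF, a factor of tissue macrophages, had a log2 fold change of 2.53 and ZEB2 one of 1.40 (adjusted p = 0.0033 and 0.00283, limma). KLF4, CEBPD and ID2 were among the 7 not called. KLF4 was 17.6 to 42.4 FPKM in the NC pigs and 20.7 to 52.9 FPKM in the HFCF pigs, CEBPD 57.7 to 69.2 and 43.1 to 99.9, and ID2 98.8 to 155.6 and 89.2 to 120.1.

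**Figure D5:**
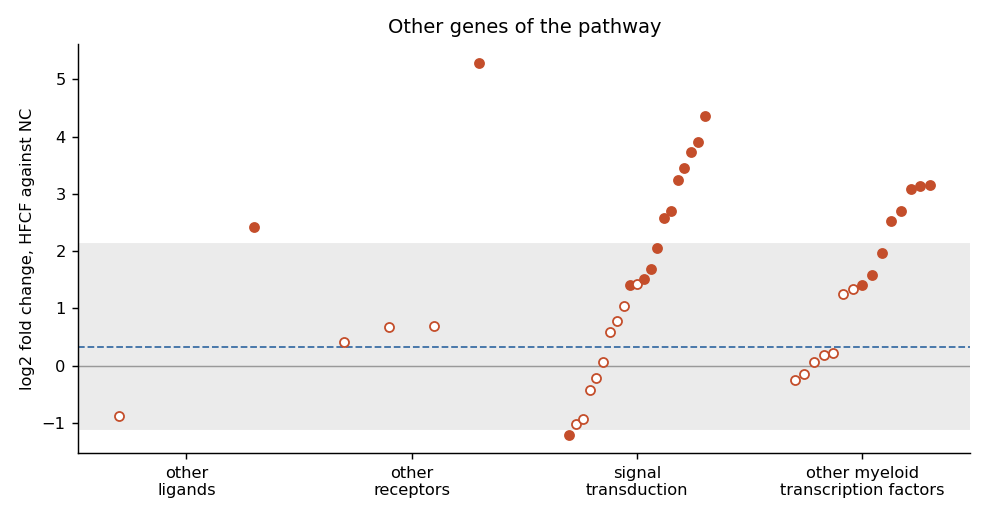
Log2 fold change of the tested genes of 4 pathway lists, filled where the adjusted p is under 0.05 in limma. The grey band spans 5% to 95% of all tested genes (-1.11 to 2.12) and the dashed blue line is their median of 0.32. CSF3R is the highest point and GAB2 the lowest filled one.

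The deposited annotation places several of the 8 genes in shared KEGG pathways, given here as a description. The pathways that held the most of them, 4 each, were cytokine-cytokine receptor interaction, pathways in cancer and transcriptional misregulation in cancer. Of their tested genes, 56 of 177, 84 of 426 and 39 of 137 were higher, and 4, 41 and 11 lower. The higher shares were 31.6%, 19.7% and 28.5%, against 22.8% of all genes. Osteoclast differentiation held CSF1, CSF1R and SPI1, and 37 of its 107 tested genes were higher and 7 lower, 34.6% higher against 22.8% of all genes. Hematopoietic cell lineage held CSF1 and CSF1R, with 24 of 68 higher and 2 lower. The TNF signaling pathway held CSF1 and CEBPB, with 15 of 92 higher and 6 lower, a share of 16.3% that lies below that of all genes. The counts include the members themselves.

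The genes most like some of the members were found by the root mean square distance between log2 values, each gene centred on its mean over the 6 pigs, among 9581 other named genes averaging 1 FPKM or more. Nearest to CSF1R were ABHD12, a lysophospholipase (distance 0.0966), the chemokine CCL4 (0.115) and MAF (0.157). ABHD12 was 12.4, 11.1 and 10.8 FPKM in the NC pigs and 103.9, 52.2 and 55.7 FPKM in the HFCF pigs. Nearest to SPI1 were PLTP, which transfers phospholipids between lipoproteins (distance 0.124), KMO, an enzyme of kynurenine breakdown (0.168), and CD48 (0.169). PLTP rose from 6.41, 11.1 and 10.1 to 535.0, 176.2 and 150.3 FPKM. Its first HFCF pig was the highest, which follows from its choice by nearness to SPI1.

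Nearest to CSF1 were RGL2 (distance 0.0928), TMEM178A (0.0969) and the scavenger receptor SCARF1 (0.12), and RGL2 was 7.67, 7.30 and 7.29 FPKM in the NC pigs and 15.5, 13.2 and 7.24 FPKM in the HFCF pigs. In each of these 3 genes the third HFCF pig was the lowest of its group, which follows from their choice by nearness to CSF1. IL34 was nearest to PDE3A, a phosphodiesterase of smooth muscle (distance 0.0234), to a row named PCYT1A that the table describes as a different gene (0.0341) and to ADSL (0.0408). Between the members themselves, the distance of CSF1 to CSF1R was 0.966, while IL34 and IRF8 (0.397) were the closest pair, followed by CSF1R and CSF2RB (0.519).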

How the data were processed

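Total RNA of 6 abdominal aortas, 3 per diet, was sequenced as paired-end reads. The authors trimmed with cutadapt 1.9, checked with FastQC, aligned with HISAT2 and assembled transcripts with StringTie. They deposited FPKM values of 30477 genes, which are relative to the total of each library. The methods name an earlier genome build than the gene identifiers belong to, so coordinates were left out, and 0.0001 FPKM was read as 0. Deposited GO and KEGG terms were used as description.

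log2(FPKM + 0.1) of the 15384 genes averaging 0.1 FPKM or more was fitted with limma 3.58.1 in R 4.3.3 (1 diet term, trended eBayes, Benjamini-Hochberg over all tested genes). The pseudocount makes fold changes of low genes too small. The code was tested on simulated data. The members and lists were chosen with earlier results of these data known, so no p was adjusted over a list. All members were named, and from each pathway list up to 3 called genes per direction with the smallest adjusted p and a mean FPKM of at least 1, from each marker list its sum and those of its first 3 genes that were matched, and the 3 nearest genes of CSF1R, SPI1, CSF1 and IL34. Other list genes named were chosen after their values were seen. The level of 1 marker gene is not reported here. Ratios were tested with exact permutations in scipy 1.17.1. The labels name no separate cohorts or dates, and pigs were taken as unpaired. Other settings tried were pseudocounts of 1 and 0.01, omission of the filter, a mean FPKM of at least 1, 3 scalings, eBayes without a trend, a replicate block and leaving out each library. Sequences were not used here.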

Additional observations from a re-analysis of the deposited data

How the results depend on the processing

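The count of 5 higher and 0 lower among the 8 genes was within 1.5 times under all alternatives except no filter on low values. There 30477 genes were tested and 3 of the 8 were higher, and the cause of this drop was not tested. Leaving out each library gave 4 to 6 higher. Over all genes, the counts of 3505 higher and 948 lower became 1932 and 584 without a filter, 2033 and 1968 after median-ratio scaling, 1748 and 1782 after quantile normalization, and 2229 and 1527 after rescaling to TPM. Leaving out each library gave 1979 to 2815 higher and 442 to 786 lower, the lowest without the first NC pig in both. The median log2 fold change of all genes was -0.0031 after median-ratio scaling and -0.075 after quantile normalization. Of the pathway list genes, 13 instead of 21 were higher without a filter, and 2 instead of 1 lower after median-ratio scaling.

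With a replicate block, 2232 genes were higher and 540 lower, and the block changed no call among the 8 genes. Same-numbered pigs had correlations of 0.0206, -0.0795 and -0.0724 in their deviations from the group means. Pairs with unlike numbers had correlations from -0.0694 to 0.127. With 3 pigs per group, these values cannot show whether same-numbered pigs shared more than a number.

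With each library left out, the log2 fold change of IL34 ran from -0.099 to 0.013, the highest without the first HFCF pig, and that of IRF8 from -0.55 without the second HFCF pig to 0.13 without the third, neither of them called in any fit. The ratio of CSF1R to the macrophage markers differed by 0.15 instead of -0.29 with a pseudocount of 1. That of CSF2RB to the markers differed by -0.044 and -0.028 with pseudocounts of 1 and 0.01 and by -0.35 to 0.26 with each library left out. The cause of these changes was not tested. The depth behind single FPKM values is unknown, which limits genes near 0 most, and 3 pigs per group limit all comparisons.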

Other observations

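A mitochondrial ribosomal RNA, ENSSSCG00000018061, was 0.69, 0.38 and 0.29 FPKM in the NC pigs and 205.7, 190.2 and 140.7 FPKM in the HFCF pigs, while the other one, ENSSSCG00000018063, was 112.8 to 372.5 and 101.0 to 130.5 FPKM. The labels name the same mRNA library kit for both groups, and diet and library handling cannot be told apart by these values.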
